A study of Mus musculus with 2 samples.

Results

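The VE-cadherin-negative cells of the E9.5 mouse yolk sac were the 305 wells that the well annotation assigned to that tissue and sort and in which at least 500 genes were detected. None of the wells so annotated fell below that number. They made up 305 of the 1378 wells on the E9.5 chip and of the 2954 wells annotated in the whole series. The study dissociated yolk sac and aorta-gonad-mesonephros (AGM, the embryonic site of blood stem cell formation) of wild-type C57Bl/6 embryos at E9.5 and E11.5, sorted live 7AAD-negative cells by surface VE-cadherin, and dispensed them as single cells on 1 ICELL8 nanowell chip per stage. VE-cadherin, encoded by Cdh5, is the junction protein of endothelial cells. The submitters call the negative cells microenvironment cells and the positive cells endothelial. The comparison pools on the same chip were the 325 yolk sac positive wells, the 354 AGM negative wells and the 299 AGM positive wells, with 46 wells of E14FF mouse embryonic stem cell RNA and 48 wells without a cell as controls. Each pool was 1 sorted suspension whose number of embryos was not given, so wells were not replicates of a condition, and no test between pools was possible.

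The yolk sac wall at this stage has an outer visceral endoderm, an inner extra-embryonic mesoderm with its mesothelium and vessels, and blood within the vessels. The endoderm secretes apolipoproteins, transthyretin and alpha-fetoprotein, as the liver does later. The blood is mostly primitive erythrocytes, nucleated cells that mature in the circulation and switch from embryonic to adult-type globin chains, and the early yolk sac also makes megakaryocytes, macrophages and mast cells. Mesenchymal cells of the mesoderm lay down the fibrillar collagens.

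The 305 wells held 3862642 counts, with a median of 12452 per well (lowest 1427, highest 24634) and a median of 2240 detected genes (520 to 3771). The other sorted pools were shallower, with median counts of 3961 in the yolk sac positive wells, 4396 in the AGM negative wells and 5832 in the AGM positive wells. Cdh5 had 23 counts and was seen in 7.54% of the VE-cadherin-negative wells, against 668 counts and 79.1% of the yolk sac positive wells. Haemoglobin transcripts took a median of 38.1% of a well's counts (lowest 24.2%, highest 45.8%), against 19.0% in the yolk sac positive, 4.54% in the AGM negative and 24.4% in the AGM positive wells. In the 48 wells without a cell the median was 23.6%, of a median total of 124.5 counts, so haemoglobin RNA was present in wells that had received no cell. The part of free RNA in the globin values of the sorted wells was not tested. Of the well barcodes, 91 were also used on the E11.5 chip and 0 were shared by 2 wells of the E9.5 chip.

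All 305 wells held red cell transcripts. The 20 red cell genes other than globins, 20 of 20 of them detected, took a median of 0.509% of a well's counts (0.267% to 0.981%), and no well lacked them. Summed, they stood at 5090 CPM (counts per 1000000 counts of the pool; Poisson 95% interval 5019 to 5162), against 2558 CPM in the yolk sac positive pool and 759 CPM in the AGM negative pool. The wells without a cell held 20 of these counts in 6452, or 3100 CPM (1893 to 4787), and the part of free RNA was not tested here either. Car2, the carbonic anhydrase of erythrocytes, ranged from 1 to 53 counts per well with a median of 20, and was found in every well. Smim1, which carries the Vel blood group, had a median of 8 counts (0 to 20), and Alas2, the erythroid enzyme of the first step of haem synthesis, had a median of 7 (1 to 19). The erythroid transcription factors Gata1 and Klf1 were lower, with 322 and 234 counts in the whole pool and a median of 1 count per well. The 15 genes of haem synthesis and iron handling took a median of 0.708% of counts (0.473% to 1.13%).

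How unevenly each gene was spread over the wells was measured as a dispersion index: the squared deviation of each well's count from its share by depth, scaled so that counting error alone gives 1. For the same relative spread the index rises with a gene's mean count. Genes with few counts therefore reach a high index only when their relative spread is large. Over the 7419 genes with at least 20 counts the median index was 1.08, with 5% of genes below 0.911 and 5% above 1.48, and 355 genes (4.79%) reached 1.5. The same 4.79% is the background for the counts that follow. Of the 20 red cell genes, 2 reached 1.5, among them Slc4a1 (the anion exchanger band 3, 1.57), and the median was 1.20. Of the 15 haem and iron genes, 2 reached it, Ftl1 (ferritin light chain, 2.06) and Tfrc (transferrin receptor, 1.63). Most red cell genes apart from globins thus lay below the 1.5 mark. When all pools were thinned to 2000 counts per well, 1.21% of 1982 genes common to the 4 sorted pools reached 1.5 here, against 2.22% in the yolk sac positive, 2.47% in the AGM negative and 2.83% in the AGM positive wells. Haemoglobin took a median of 38.1% of counts here, against 19.0%, 4.54% and 24.4% in those pools. At equal totals this leaves fewer counts for other genes, which lowers the index. These shares therefore do not compare relative spread between the pools.

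**Figure D1:**
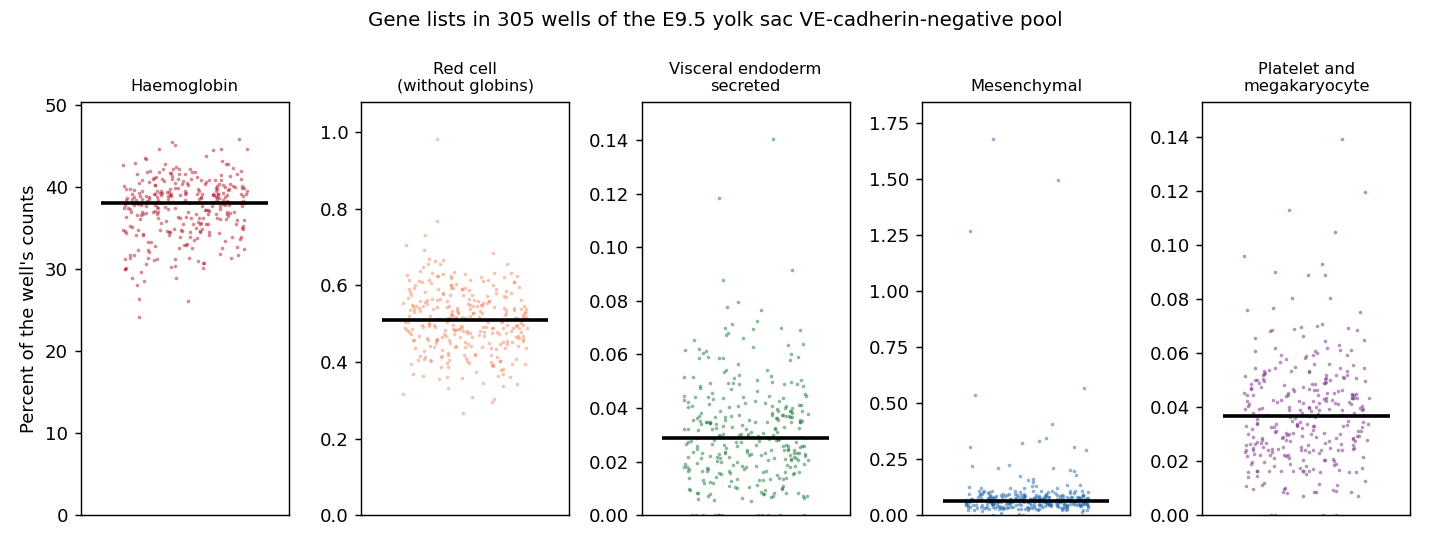
Share of each well's counts (percent, linear axis from 0) taken by haemoglobin, red cell, visceral endoderm, mesenchymal and platelet genes. Each point is 1 of the 305 wells and the bar is the median (38.1% for haemoglobin). The red cell shares form a single cloud from 0.267% to 0.981%, while 3 wells stand above 1.2% in the mesenchymal panel.

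The embryonic globins were among the most abundant transcripts of the pool. Hbb-y, the epsilon-type beta chain (chromosome 7, 103851749 to 103853216, minus strand, GRCm38), had a median of 1392 counts per well (173 to 2868). Hbb-bh1, the other embryonic beta chain (chromosome 7, 103841637 to 103843164, minus strand), had a median of 1101 counts (120 to 2091), and 88546 CPM (Poisson 95% interval 88249 to 88843). Hba-x, the embryonic zeta-type alpha chain, had a median of 1136 (204 to 2075). Together these 3 genes took a median of 29.7% of a well's counts (19.1% to 39.1%), and none was missing from any well. The 2 embryonic beta chains were kept in a narrow ratio: Hbb-bh1 made up 44.0% of their sum over the pool, with the middle 50% of wells between 43.1% and 45.2%. That share was 40.8% in the yolk sac positive, 42.8% in the AGM negative and 41.2% in the AGM positive pool, and 41.1% (exact 95% interval 37.6% to 44.7%) in the wells without a cell. The lowest share of any well was 31.7%, in a well of 3272 counts, and the highest 51.1%, in the shallowest well (1427 counts, 520 genes). In that shallowest well Hba-x made up 81.9% of the alpha chains, against 54.8% over the pool.

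The adult-type globins Hba-a1, Hba-a2, Hbb-bs and Hbb-bt were present in every well. Of these, Hbb-bs and Hbb-bt were far less even than the embryonic globins. Spread beyond counting error, in percent of a gene's mean, was 115.7% for Hbb-bs and 104.9% for Hbb-bt. It was 13.3% for Hba-a1 and 16.3% for Hba-a2, against 12.4% for Hbb-bh1, 10.2% for Hbb-y and 9.21% for Hba-x. By the index, Hba-a1 (12.8) and Hba-a2 lay below Hbb-bh1 (18.4) and Hbb-y (15.9), and Hba-x was at 10.7. Hba-a1 had a median of 665 counts (35 to 1174) and Hba-a2 of 277 (10 to 630). Hbb-bs, an adult beta chain of the C57Bl/6 haplotype, had a median of 24 counts but reached 381 in 1 well, and its index of 47.6 was the highest of any gene outside Gm42418, Ctla2a and Rasal2. Hbb-bt, the neighbouring adult beta gene, had a median of 11 and a highest value of 189, with an index of 17.2. Hbb-bs and Hbb-bt are near-identical copies whose reads could be split by the counting, so their sum was used. It took a median of 0.285% of a well's counts, with a lowest value of 0.170% and a highest of 4.42%.

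The adult beta pair varied together over the wells and apart from Hbb-y, and any link of this to sequence was not tested. The 30 bases that hold the CCAAT box in front of these globin genes are shown as a description. They are RefSeq windows of GRCm38.p6, written 5′ to 3′ on the gene's strand, and capitals mark CACCC and CCAAT.
Hbb-y (chr7:103853281-103853310, minus strand): aggaccacgggtcaggctgaCCAATagctt
Hbb-bs (chr7:103827995-103828024, minus strand): gagccaCACCCtggtaagggCCAATctgct
Hbb-bt (chr7:103813989-103814018, minus strand): gggtaaCACCCtggcattggCCAATctgct
Hba-a1 (chr11:32283564-32283593, plus strand): gtagagcaagcacaaaccagCCAATgagaa
Hbb-bs and Hbb-bt share 24 of the 30 letters and place CACCC 9 bases before CCAAT, whereas Hbb-bs and Hbb-y share 10 of 30 and the nearest CACCC lies 23 bases from CCAAT in Hbb-y. The window of Hba-a2 (chr11:32296381-32296410) has the same 30 letters as that of Hba-a1. Both motifs are common, CACCC being found on either strand in 52.0% and CCAAT in 33.8% of 32851 RefSeq windows of 250 bases, so a match is a description and not a site. Over the 305 wells, the counts above or below the depth share of Hbb-bs and Hbb-bt had a Pearson r of 0.89, and those of Hba-a1 and Hba-a2 of 0.86. For Hbb-bs and Hba-a2 the r was 0.65, and for Hbb-bs and Hbb-bh1 it was 0.00. These r values describe wells of 1 pool that share library and depth. Reads split by the counting between Hbb-bs and Hbb-bt, or between Hba-a1 and Hba-a2, could also raise the r of a pair, which was not tested.

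A small group of wells had adult beta shares above the body of the others. At a threshold of 0.5% of counts for Hbb-bs plus Hbb-bt, chosen after the values were seen, 22 wells (7.21%) lay above it, with 33.6% of all adult beta counts. The lowest values inside were 0.507% and 0.519%, and the highest outside were 0.481% and 0.455%. The groups had median depths of 14065 and 12406 counts. In the 22 wells the adult alpha genes were also higher: Hba-a2 stood at 28989 CPM against 21705 CPM in the other 283 wells (log2 ratio 0.42), and all 22 wells lay above the median of the others. Hba-a1 was 60301 against 51804 CPM (log2 ratio 0.22), with 19 of 22 wells above that median. The adult-type share of alpha chains was 50.9% (50.4% to 51.3%) in the 22 wells and 44.7% (44.6% to 44.8%) in the rest, intervals that cover counting error only. The embryonic genes were close to level, with log2 ratios of -0.03 for Hbb-bh1, -0.03 for Hbb-y and -0.08 for Hba-x. Among 984 other genes with enough counts, 2 were at least 2-fold higher in the 22 wells, Drg1 (2.16-fold) and Btaf1 (2.01-fold), and 0 were 2-fold lower. Of the other pools, 0 of 325 yolk sac positive, 3 of 354 AGM negative and 0 of 299 AGM positive wells reached 0.5%. The highest AGM negative well had 4.63%, and adult beta made up 4.51% of beta chain counts in that pool against 1.91% here. As a share of all counts adult beta was lower there, with a median well of 0.0801% against 0.285% here. Of the 48 wells without a cell, 9 reached 0.5%, on 9 counts of Hbb-bs and 3 of Hbb-bt in all.

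**Figure D2:**
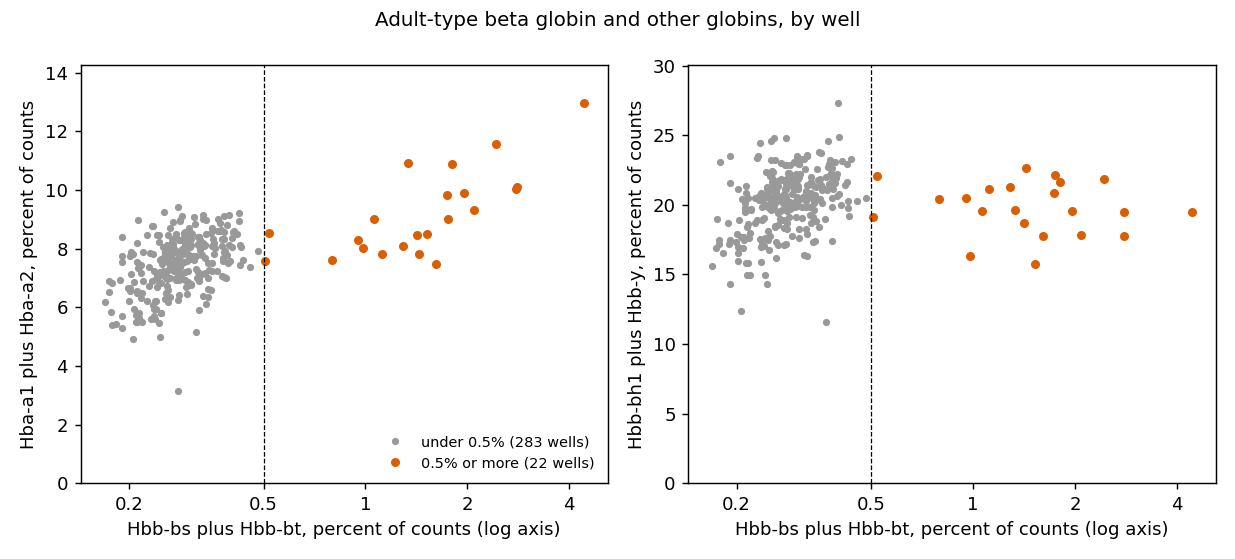
Adult-type beta globin (Hbb-bs plus Hbb-bt, percent of a well's counts, log axis) against adult-type alpha globin (left) and embryonic beta globin (right), both in percent of counts. Each point is 1 well, the dashed line is the 0.5% threshold, and the 22 wells at or above it extend to 4.42%. Adult alpha is higher in them, while their embryonic beta values lie within the range of the other wells.

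Visceral endoderm genes were at a low level in nearly every well. The 8 secreted genes measured of the 10 listed gave 1191 counts in all, a median of 4 per well (0 to 13), or 0.0290% of counts, and 12 wells had none. Ttr, the transthyretin gene, had 378 counts, a median of 1 per well and at most 6. Apoa1, the main apolipoprotein of high-density lipoprotein (chromosome 9, 46228580 to 46230466, plus strand), had 222 counts, a median of 1 and at most 4. Afp, alpha-fetoprotein, had 230 counts and at most 8 in a well, and Apoa2 had 120 counts and at most 3. No well held more than 13 counts of the list, in wells of up to 24634 counts. Apoa1 was found in 51.1% of wells (45.4% to 56.9%), where an even spread by depth gives 50.9%, and Ttr in 66.9%, where it gives 69.6%. Their indices were 0.97 and 1.30, and 0 of the 8 genes reached 1.5. With counts this low a moderate spread would not bring a gene to 1.5.

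The transcription factors and epithelial genes of that tissue had few or no counts. Of 12 such genes, Foxa1 and Foxa2 had 0 counts, Hnf4a and Gata4 had 5 each, Gata6 had 11 and Epcam had 4. A count of 0 in 3862642 allows a level of up to 0.777 CPM. The keratins Krt8 and Krt18 had 85 and 104 counts. In the yolk sac positive pool the secreted genes were at 94.7 CPM against 308 CPM here (Poisson 95% intervals 79.2 to 112 and 291 to 326), and at 17.7 CPM in the AGM negative pool. At 2000 counts per well, Apoa1 was seen in 15.1% of these wells and in 2.82% of the yolk sac positive wells, endothelial by their sort. Of the list's counts, Ttr made up 31.7% (29.1% to 34.5%) here and 33.6% (25.6% to 42.4%) there, and Apoa1 18.6% and 16.0%. Afp was 19.3% (17.1% to 21.7%) here and 26.0% (18.7% to 34.3%) there. Apoa2 was 10.1% (8.42% to 11.9%) here and 3.82% (1.25% to 8.68%) there. The wells without a cell held 3 counts of the list in 6452, which is 465 CPM and too few to set a background level. The part of free RNA in the endoderm values was not tested.

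Platelet and megakaryocyte genes were likewise low, and their counts were too few for the index to show a moderate spread. The 16 genes had 1492 counts, a median of 0.0368% of a well's counts (0% to 0.139%), and 4 wells had none. Pf4, platelet factor 4 (chromosome 5, 90772435 to 90773383, plus strand), had 765 of these counts, a median of 2 per well and at most 9, and was found in 90.5% of wells, where an even spread gives 90.0%. Its index was 1.06. At 2000 counts per well Pf4 was seen in 28.9% of these wells and in 9.09% of the yolk sac positive wells. Plek, a signalling protein of platelets, had 249 counts with at most 6 in a well and an index of 1.14. Itga2b, the integrin chain that marks the lineage, had 62 counts, at most 4 in a well, with an index of 1.06, and Gp9 of the von Willebrand factor receptor had 53 counts with an index of 0.88. The highest index was that of Itgb3, the partner chain of Itga2b, at 1.38, and 0 of the 7 genes with enough counts reached 1.5.

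**Figure D3:**
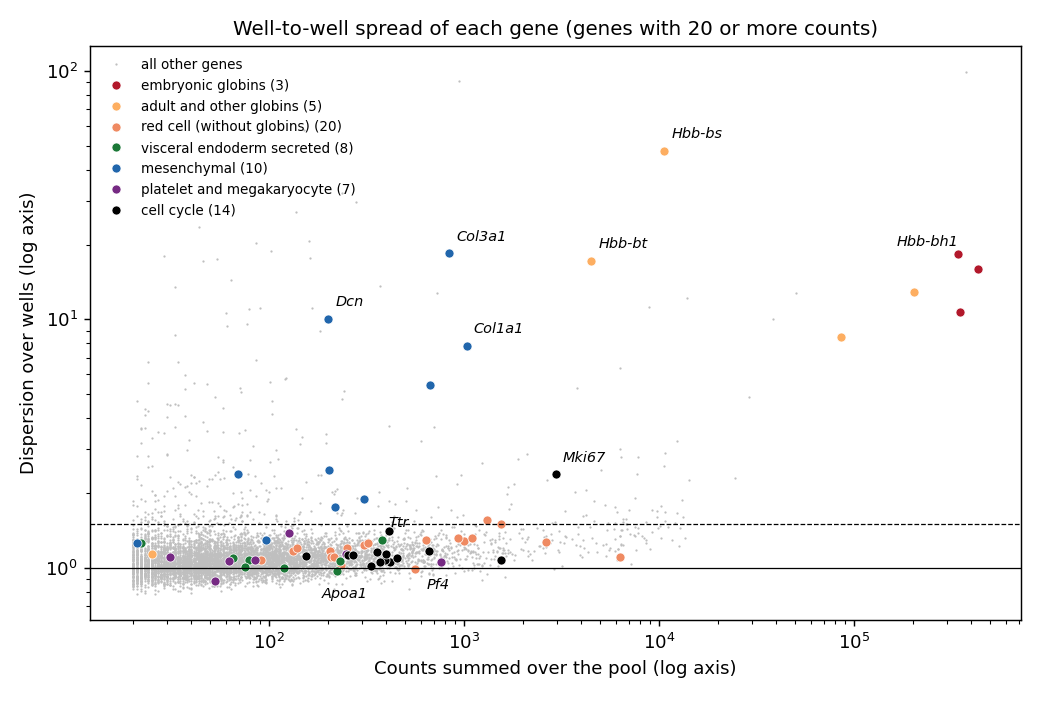
Dispersion index of each gene over the 305 wells (log axis) against its summed counts (log axis), for the genes with at least 20 counts, with the listed genes in colour. The solid line at 1 is counting error alone and the dashed line is 1.5. Apoa1 (0.97), Ttr (1.30) and Pf4 (1.06) lie near 1, while Col3a1 (18.4), Dcn (10.0) and Col1a1 (7.84) lie far above it.

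The mesenchymal genes were less even than the endoderm and platelet genes: the 25 wells with most held 38.0% of their counts. The 12 genes gave 3664 counts, a median of 0.0666% of a well's counts (0% to 1.68%), and 8 of the 10 with enough counts reached an index of 1.5, with a median of 2.44. Col1a1, a chain of type I collagen (chromosome 11, 94936224 to 94953042, plus strand), had 1031 counts, a median of 2 per well and 64 in the highest well. Col3a1, type III collagen, had 840 counts, a median of 1 and a highest value of 91. Dcn, the collagen-binding proteoglycan decorin, had 201 counts, a median of 0 and a highest value of 41. Each was found in fewer wells than an even spread gives: Col1a1 in 87.5% against 95.1%, Col3a1 in 75.7% against 91.9% and Dcn in 31.5% against 47.5%. The 30 wells with most of a list held 40.4% of the mesenchymal counts, 22.6% of the platelet, 21.7% of the endoderm and 16.4% of the red cell counts, while the 30 deepest wells held 14.6% of all counts. Because wells were ranked by the list's own counts, counting error alone raises such a share above 14.6%. The rise is largest for lists with few counts per well, such as endoderm and platelet. The share that counting error gives was not computed. At 2000 counts per well Col1a1 was seen in 32.6% of these wells and in 2.51% of the yolk sac positive wells. The wells without a cell held 5 mesenchymal and 3 platelet counts in 6452, too few to set a background. The mesodermal transcription factors Twist1 and Prrx1 had 4 counts each.

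The 3 wells with most mesenchymal counts held 580 of the 3664 (15.8%). The first had 250 mesenchymal counts (1.49% of its total), with 91 of Col3a1 and 31 of Col1a1, and 26.4% haemoglobin. The second had 204 (1.68%), with 57 of Col3a1 and 64 of Col1a1, and 24.2% haemoglobin, the lowest of the pool. The third had 126 (1.27%), with 61 of Col3a1 and 25 of Col1a1, and 30.8% haemoglobin. After these the values went down without a gap that wide, to 85, 65, 60, 60, 59, 50 and 44 counts. Genes outside the list were high in the same wells: Mgp (matrix Gla protein) had 75, 16 and 34 counts, Igfbp6 75, 52 and 19, Penk (proenkephalin) 48, 6 and 10, and Ctla2a 300, 14 and 121. All 3 wells also held Hbb-bh1, at 1096, 689 and 712 counts. Without these 3 wells the index was 3.30 for Col1a1, 3.19 for Col3a1 and 1.44 for Dcn, and the list's median was 1.5. Outside the 23 wells of the cluster described next, Col1a1 was found in 86.5% of 282 wells, where an even spread gives 89.9%, with an index of 1.29.

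Clustering of the wells without globin, mitochondrial ribosomal and transfer RNA, and Gm42418 counts gave 6 clusters of 99, 55, 49, 44, 35 and 23 wells. Mitochondrial protein genes, such as ND1, ND4, CYTB and COX1, were not left out. The genes that formed the clusters describe them and do not test them. The 23 wells of cluster 6 held the 3 wells above, and mesenchymal genes took 0.383% of their counts (0.238% without those 3), against 0.0612% to 0.0710% in clusters 1 to 5. Of the 12 mesenchymal genes, 10 were in at least 10% of the cluster's wells and at least 1.5 times higher than elsewhere, and the count was also 10 without the 3 wells. Cluster 6 was picked out by its mesenchymal level, and the share of all genes that meets this rule is not given. The 10 therefore only describes the cluster. Its leading genes by fold were Ly6a (28.1-fold), Penk (27.8-fold), Mgp (24.7-fold) and Tshz2 (23.3-fold), none of them from a marker list. Without the 3 wells, which held 41 of the 45 Ly6a, 64 of the 75 Penk, 125 of the 200 Mgp and 5 of the 28 Tshz2 counts, the folds were 2.86, 4.67, 10.6 and 22.0. Haemoglobin took a median of 36.4% of counts in cluster 6. Col1a1 was at 975 CPM in cluster 6 and 699.9 CPM without the 3 wells, against 199 CPM in the other 282 wells. Smooth muscle genes were mixed. Acta2, smooth muscle actin, was at 88.9 CPM in cluster 6 and 94.2 CPM elsewhere, and Myh11, smooth muscle myosin, had 0 counts in cluster 6. Cald1 (caldesmon) was at 109.7 against 57.9 CPM, Tagln (transgelin) at 47.4 against 28.4 and Myl9 (a myosin light chain) at 38.5 against 17.0. Over all wells 3 of the 7 smooth muscle genes with enough counts reached an index of 1.5, Myh11 (4.5), Acta2 (1.77) and Cald1 (1.71). Without the highest well of each gene the indices were 3.34 for Myh11, 0.98 for Acta2 and 1.27 for Cald1. The highest Acta2 and Myh11 counts were in 1 well of cluster 5, with 20 and 9 counts, 51 smooth muscle counts in all against 18 in the next, only 1 count of Col1a1, and 36.3% haemoglobin.

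**Figure D4:**
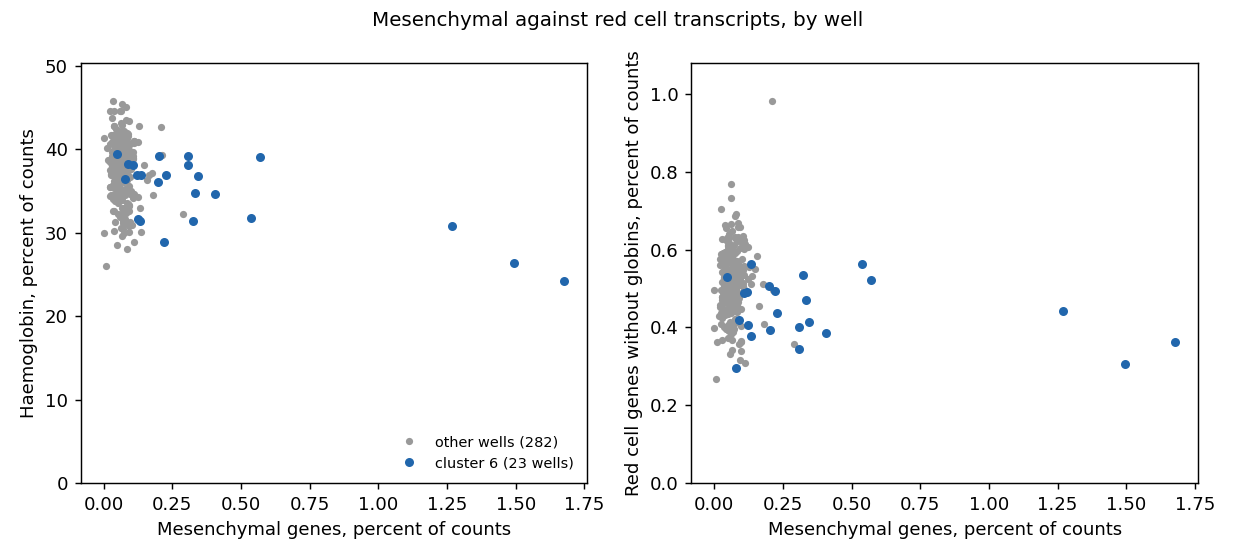
Haemoglobin (left) and red cell genes without globins (right) against mesenchymal genes, each in percent of a well's counts on linear axes, with 1 point per well. The 23 wells of cluster 6 are in blue. The 3 wells above 1.2% mesenchymal counts have 24.2% to 30.8% haemoglobin, and the well with 0.981% red cell genes is the shallowest one.

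Clusters 1 to 5 were not named. Cluster 2 (55 wells) had a median of 2707 detected genes (1942 in cluster 1 and 2708 in cluster 6), a median haemoglobin share of 33.6% and the highest cell cycle share (0.285%). Its first gene, Prkg1 (cGMP-dependent protein kinase), had 65 of 100 counts in 1 well. Cluster 3 was led by Rab27b, a granule transport GTPase (3.23-fold), and its platelet share was 0.0480%, against 0.0327% to 0.0398% in the others. Itga2b of the platelet list was 2.31-fold higher in it than outside, with 20 of 62 counts. The Pf4 level over the 6 clusters ran from 163 CPM (123 to 212) in cluster 6 to 238 CPM (203 to 278) in cluster 3, and that of Apoa1 from 50.0 CPM (33.5 to 71.7) in cluster 4 to 64.9 CPM (50.6 to 82.0) in cluster 1. For Apoa1 these counting intervals overlap. For Pf4, cluster 3 overlaps cluster 6 but not cluster 2, which was at 164 CPM (137 to 195).

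The mixing of programmes within wells was read as the number of genes of a list detected in a well, 3 or more being required. At full depth all 305 wells met this for red cell genes, 269 (88.2%) for mesenchymal, 164 (53.8%) for platelet and 161 (52.8%) for endoderm genes. The endoderm and mesenchymal lists were met together in 149 wells, where the product of the shares gives 142. Endoderm and platelet were met together in 90 wells (86.6 from the product) and mesenchymal and platelet in 149 (145 from the product). All 3 beside red cell genes were met in 87 wells (28.5%), and none of the 3 in 12. Each pair was met in slightly more wells than the product of the shares, which takes no account of the differences in depth. After thinning to 2000 counts, 304 wells remained and 298 (98.0%) met the rule for red cell genes, 38 (12.5%, exact 95% interval 9.0% to 16.8%) for mesenchymal, 6 (1.97%) for endoderm and 4 (1.32%) for platelet genes. In 1 well 2 of these 3 lists were met, and 257 (84.5%) met none. At the same depth 3 of 319 yolk sac positive wells (0.940%) and 37 of 354 AGM negative wells (10.5%) met the mesenchymal rule.

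Relations between programmes over wells were weak. Counts above or below the depth share gave r = -0.07 for endoderm and mesenchymal, -0.03 for endoderm and platelet and -0.03 for mesenchymal and platelet genes. Mesenchymal counts ran against embryonic globin (r = -0.31) and red cell genes (r = -0.21), and cell cycle genes against embryonic globin (r = -0.34) and with red cell genes (r = 0.30). These are descriptions over 305 wells that share a library and a total, and shares of 1 total are not free of each other. The genes most like the mesenchymal sum were Sox5 (r = 0.43), Igfbp6 (0.42), Penk (0.42), Mgp (0.41) and Slit3 (0.41). The genes most like the platelet sum were Rab27b (0.30) and Fermt3 (0.23, kindlin-3 of the integrin complex), and those most like the red cell sum were Slc25a21 (0.29) and Nudt4 (0.27). For the endoderm sum no gene exceeded 0.22 (Chchd7). Most of the 8 leading platelet and endoderm genes changed when the offset added before taking logs was altered, while most red cell and mesenchymal genes stayed.

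Cell cycle genes were present throughout, at a median of 0.217% of a well's counts (0.0511% to 0.701%), and 1 of 14 reached an index of 1.5. That gene was Mki67, the proliferation antigen, with 2958 counts, a median of 8 per well (0 to 42) and an index of 2.38. Its level went with depth, from 550 CPM in the 77 shallowest wells through 701 and 775 to 917 CPM in the 76 deepest, and at 2000 counts per well its index was 1.18. Thinning lowers a gene's mean count, and the index with it, so 2.38 and 1.18 cannot be compared as relative spreads. Top2a, the mitotic topoisomerase, had 1550 counts and an index of 1.07. Some other high indices came from 1 well. Rasal2 had 103 of its 152 counts in 1 well and an index of 58.0 that was 0.99 without it, Fam50b had 35 of 44, and Terf2ip had 65 of 137. Of the 355 genes at 1.5 or more, 138 still reached it without their highest well. A further 36 were left with fewer than 20 counts without that well and had no index.

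Macrophage, endothelial and other lineage genes were low. The 14 macrophage genes had 225 counts, with C1qa and Adgre1 at 0, the 15 endothelial genes had 247, and the 10 blood progenitor genes had 678. The trophoblast genes measured had 6 counts, the neural and somite genes 19 and the genes of the stem cell control RNA 18. The mesothelial list had 92 counts, of which Upk3b, a uroplakin of mesothelium, had 52.

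The pool was set against the yolk sac positive pool of the same chip as the log2 ratio of CPM, over 9371 genes with at least 20 counts in the pair. Of these, 239 (2.55%) were at least 2-fold higher here and 3914 (41.8%) at least 2-fold lower, with a median of -0.82, so a gene at the median of all genes already lies below 0. Under TMM scaling, which sets the bulk of genes level, 1119 were higher and 1634 lower. Fewer cells of a type and less RNA per cell cannot be told apart in such sums. The 3 embryonic globins were 0.98 to 1.17 higher on the log2 scale. Of 20 red cell genes, 11 were at least 2-fold higher and 0 lower (median 1.05). Of 8 secreted endoderm genes, 7 were higher and 0 lower (median 1.77), with 1.92 for Apoa1 (1.27 to 2.64) and 1.62 for Ttr (1.17 to 2.11). Of 3 endoderm factor and epithelial genes with enough counts, 2 were higher and 1 lower (median 2.12). Of 3 endoderm receptor genes, 1 was higher and 1 lower (median 0.96). The 4 receptor genes listed summed to 55.1 CPM here and 279 CPM in the positive pool. All 4 lipid and lipoprotein assembly genes with enough counts were lower (median -2.18). Of 10 mesenchymal genes, 8 were higher and 1 lower (median 3.56), with 4.07 for Col1a1 (3.46 to 4.75), while Fn1, fibronectin, which endothelial cells also make, stood at -2.46. Of 9 platelet genes, 3 were higher, Pf4 among them at 1.93 (1.58 to 2.30), and 3 lower (median -0.48, or 0.43 under TMM). All 15 endothelial genes (median -5.85) and all 12 macrophage genes (median -3.56) were lower.

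**Figure D5:**
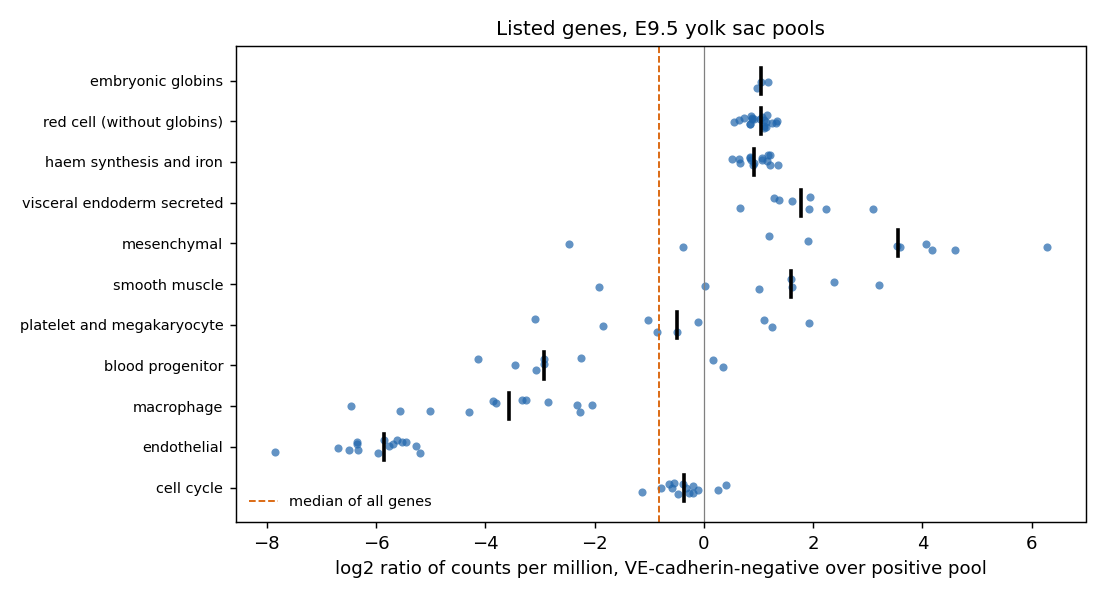
log2 ratio of CPM, VE-cadherin-negative over positive yolk sac pool, for each listed gene (points) with the list median (bar). The dashed line is the median of all 9371 genes, -0.82, and 0 marks equal levels. Endothelial (median -5.85) and macrophage (-3.56) genes lie to the left, and mesenchymal (3.56) and secreted endoderm genes (1.77) to the right.

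Against the AGM negative pool, the same sort in the embryo proper, 435 of 10075 genes (4.32%) were at least 2-fold higher and 5641 (56.0%) lower, with a median of -1.17 (1786 higher and 2084 lower under TMM). All 20 red cell genes (median 2.69), all 8 secreted endoderm genes (median 3.70) and all 7 platelet genes (median 2.87) were higher. The other endoderm lists did not follow the secreted genes. Of 5 endoderm factor and epithelial genes, 0 were at least 2-fold higher and 2 lower (median -0.16). Of 3 endoderm receptor genes, 1 was higher and 1 lower (median -0.27). Of 4 lipid and lipoprotein assembly genes, 0 were higher and 2 lower (median -1.63). The 12 mesenchymal genes split, 5 higher and 3 lower (median 0.12, or 1.33 under TMM): Col1a1 was 2.78 higher (2.42 to 3.16) and Col3a1 0.98, whereas Pdgfra, a growth factor receptor of early mesenchyme, was at -4.37 (-5.09 to -3.72). Twist1, from 4 counts here, was at -5.33 (-7.25 to -3.91), and Prrx1, also from 4, at -5.27 (-7.19 to -3.85). Of 6 neural and somite genes with enough counts, all 6 were at least 2-fold lower in the yolk sac pool.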

How the data were processed

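Counts per gene and well were taken as deposited. Per the submitters' processing notes, FastQC, cutadapt and STAR were used with mm10 (GRCm38), with versions not stated. Whether molecular identifiers were counted is not given in the sources used here, so intervals cover counting error only and may be too narrow. The deposited count table of 20575 gene rows and its well annotation were joined by the cell ID of each well, and 0 columns of per-well values belonged to no sample. Of 4068 rows given by gene ID, 3995 received a symbol. Members were the wells annotated as E9.5 yolk sac, VE-cadherin negative, with 500 or more detected genes. The members and the gene lists were chosen with earlier results of these data known.

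Levels are CPM of all counts of a well or pool, with exact Poisson intervals. Shares have exact Clopper-Pearson 95% intervals. Ratios between pools have conditional binomial intervals, with a floor of 3 counts, over genes with at least 20 counts in the pair. A fold of 2 was used to call a gene higher or lower, since 1 pool a group allows no test. Thinning drew 2000 counts per well (seed 1). The dispersion index was added after the data were seen, as were the 0.5% threshold on adult beta globin and the values without the 3 wells with most mesenchymal counts. Clusters came from Leiden at resolution 1 on 2000 variable genes, 20 principal components and 15 neighbours (scanpy 1.11.5, leidenalg 0.10.2). The named genes were the listed markers, the 8 leading genes per cluster or list, and genes whose pattern was most like a list; Drg1, Btaf1, Rasal2, Fam50b and Terf2ip were singled out after their values were seen. Per the labels, doublets were gated out by flow cytometry and wells were imaged for single cells. Scrublet over the 1283 sorted wells marked 0 of the 305 wells and 1 in all, too few to say that it worked, and no well was removed. Scripts used Python 3.11.15, numpy 2.4.6, pandas 2.3.3 and scipy 1.17.1. The scaling alternative used TMM of edgeR 4.0.16 in R 4.3.3. Promoter windows were found for 12 of 15 genes looked up. The statistics were tested on simulated data. Some genes of the lists are counted in the list values but not reported here by name.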

Additional observations from a re-analysis of the deposited data

Results flagged for a closer look

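The 48 wells without a cell, used in the report as background and not as a pool of cells, held 1126 embryonic globin counts of 6452 in all: 453 of Hbb-y, 357 of Hba-x and 316 of Hbb-bh1. At 3 counts in 6452 a level of 465 CPM is the least that could be told from 0, and the embryonic globins stood at 174520 CPM there, against 291608 CPM in the VE-cadherin-negative yolk sac wells. The wells of stem cell RNA had a median haemoglobin share of 0.806%. Where these counts came from was not tested.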

How the results depend on the processing

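No paired analysis was possible because each pool is 1 sorted suspension and carries no replicate number. The pool comparisons moved with the scaling and with the count minimum. With TMM, 1119 genes were at least 2-fold higher and 1634 lower than in the yolk sac positive pool (median 0.093), and 1786 and 2084 against the AGM negative pool (median 0.035). Other totals left out haemoglobin and mitochondrial ribosomal and transfer RNA, but not the mitochondrial protein genes. With them, 441 were higher than in the yolk sac positive pool (median -0.43), and 777 higher and 3422 lower than in the AGM negative pool (median -0.56). Over genes with at least 100 counts, 79 were higher and 1379 lower (median -0.63), and 210 and 2342 (median -0.95). Under TMM the platelet and cell cycle medians against the yolk sac positive pool changed sign. Embryonic globin counts came to 48.1% of the totals without haemoglobin and mitochondrial ribosomal and transfer RNA. That is a ratio to counts that leave the globins out, and not a share like their 29.2% of all counts. On the same totals the mesenchymal median was 0.112%. Weighting wells equally gave the globins 29.4% of all counts. Wells that met 2 or more tissue lists numbered 1 at 2000 counts, 0 at 1000, 18 at 4000 and 214 without thinning, and 30 when 2 genes or 0 when 5 genes were required. Listed genes seen in at least 50% of wells went from 19 to 58 without thinning. After thinning, which lowers the index along with the counts, 32 of 2241 genes with 20 counts reached an index of 1.5, against 355 of 7419. Leaving out the 3 wells with most mesenchymal counts took the mesenchymal median index from 2.44 to 1.5 and the level in cluster 6 from 0.383% to 0.238%. Clustering on all genes gave that cluster 35 wells, and of the 32 genes most like the lists, 18 and 16 remained with offsets of 10 and 1000. Of 8 per list, the red cell list kept 7 and 7 and the mesenchymal list 5 and 5. The endoderm list kept only 4 and 1, and the platelet list 2 and 3. A threshold of 0.3% put 127 wells above the adult beta mark, and 1% put 17 there. With genes of at least 100 counts, some list medians had no gene left and gave no value. Leaving out marked doublets removed no well and so says nothing. Other causes were not tested.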
